A study of Caenorhabditis elegans with 2 samples.

Results

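The aminoacyl-tRNA synthetase genes of Caenorhabditis elegans were examined in a ChIP-seq experiment on the homeobox protein CEH-82 (F45C12.2). A gene was taken as a member if it is protein-coding and its symbol is a single letter for the amino acid followed by "ars" and a number. This gave 32 genes of 19973 protein-coding genes in the Ensembl annotation of the WBcel235 (ce11) build. Of these, 20 encode cytosolic enzymes and 12 encode mitochondrial ones. The chromatin came from whole L1 larvae, sexes mixed, of the strain OP212, whose genotype is unc-119(ed3) III; ddEx58. In this strain CEH-82 carries a C-terminal GFP-FLAG tag. The labels name the antibody only as ceh-82, and the larvae are described both by the array name ddEx58 and as an insertion, so the copy that is tagged could not be settled. There are 2 biological replicates of this 1 group. The authors' peak lists used a control alignment, and no list from untagged larvae was analysed here. The replicates are whole larvae, so a peak can come from any tissue, and many cells with little CEH-82 at a site cannot be told apart from few cells with much.

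An aminoacyl-tRNA synthetase joins an amino acid to its matching tRNA in an ATP-dependent reaction, and elongation factors then carry the charged tRNA to the ribosome. Cytosolic translation and the separate translation system of the mitochondrion both need charged tRNAs. Most amino acids therefore have a cytosolic and a mitochondrial synthetase, both encoded in the nucleus, while the enzymes for glycine, histidine, lysine and threonine come from single genes that serve both places and were counted here as cytosolic. Worm symbols usually end in 1 for the cytosolic enzyme and in 2 for the mitochondrial one. The exceptions are aars-2, the cytosolic alanine enzyme, aars-1 and vars-1, the mitochondrial alanine and valine enzymes, and fars-3, the beta subunit of the cytosolic phenylalanine enzyme.

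Each gene was read against 4 peak lists. The optimal list holds 2346 peaks that the authors kept after an irreproducible discovery rate (IDR) analysis of the replicates, and the pooled relaxed list holds 20459 peaks and background regions called on both replicates together. Each replicate also has its own relaxed list of 30000 regions. The signal of a peak is the authors' value on a scale they do not define, so it is used only to rank peaks within a list. It ran from 30.9 to 619 in the optimal list, with a median of 55.4. The optimal list consists of exactly the 2346 strongest peaks of the pooled relaxed list. Distances run from the summit of a peak to the annotated 5' end of the gene, called the gene start, and are negative upstream of it. A gene is said to have a peak where a summit lies within 500 bp of its start. Read depth is not given in the sources used here, so no value carries a counting error of its own reads.

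In the optimal list only 3 of the 32 synthetase genes had a peak. They were ears-2, the mitochondrial glutamate enzyme, mars-1, the cytosolic methionine enzyme, and kars-1, the lysine enzyme of both compartments. This is 9.38% of the synthetase genes (95% Wilson interval 3.24 to 24.2%, which covers counting error over genes only), against 8.18% of all protein-coding genes. The share of synthetase genes was thus close to the share of all genes. It was also close to the 8.57% of autosomal protein-coding genes, which were counted because no synthetase gene lies on the X chromosome, where 13.7% of protein-coding genes lie. By compartment, 2 of 20 cytosolic genes (10%, interval 2.79 to 30.1%) and 1 of 12 mitochondrial genes (8.33%, interval 1.49 to 35.4%) had an optimal peak, and the intervals overlap almost wholly. For scale, 63 of 78 cytosolic ribosomal protein genes (80.8%) and 16 of 70 mitochondrial ribosomal protein genes (22.9%) had one. These shares were not tested against each other, and the synthetase interval covers the 22.9% of the mitochondrial ribosomal protein genes. The cytosolic ribosomal count rests on the reach and on shared summits, at 14 of 78 (17.9%) within 250 bp and 34 of 78 (43.6%) with each summit given only to its nearest start.

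The peak at ears-2 was the strongest of them. The gene spans chrIV:388686-390468 on the minus strand, and the summit lay 31 bp upstream of its start, with a pooled signal of 148.8 and rank 196 of 2346. Replicate 1 had a signal of 61.1 there, rank 257 of its list, and replicate 2 had 83.0, rank 185. Both replicates placed the peak near the top of their lists, and their summits, at −27 and −32 bp, were 5 bp apart. The 91 bp between ears-2 and its divergent neighbour uncp-18 hold this summit, which is 61 bp from the uncp-18 start, so the peak cannot be given to either gene alone. The peak at mars-1 (chrIV:11631941-11635487, minus strand) had its summit 287 bp upstream, with a pooled signal of 56.6 and rank 1130. Its signal was 35.4 in replicate 1, rank 718, at −296 bp, and 19.5 in replicate 2, rank 2076, at −258 bp. The rank was thus higher in replicate 1, while the summits were 38 bp apart. A second optimal peak lay 202 bp farther upstream of mars-1, at −489 bp, with a pooled signal of 33.7 and rank 2151, near the end of the list. Its signal was 15.2 in replicate 1, rank 2290, at −495 bp, and 16.9 in replicate 2, rank 2470, at −475 bp. The called regions of both mars-1 peaks, chrIV:11635634-11635913 and chrIV:11635836-11636115, overlap. The peak at kars-1 (chrII:7070183-7072415, minus strand) had its summit 350 bp upstream, with a pooled signal of 39.3 and rank 1824. Its signal was 22.1 in replicate 1, rank 1428, at −390 bp, and 14.6 in replicate 2, rank 3095, at −335 bp. In replicate 2 alone the kars-1 peak would thus not be among the 2346 strongest. At mars-1 the nearest other protein-coding start, F58B3.6, was 874 bp from the stronger summit. At kars-1 a gap of 1398 bp separates the gene from the next gene upstream, kat-1. All 4 summits, with both at mars-1, lie outside protein-coding genes.

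The 50 bases on either side of the 4 optimal summits at ears-2, mars-1 and kars-1 are shown because they are the sites the optimal calls rest on, with the 2 strongest relaxed-only peaks, at sars-2 and fars-3, added after their values were seen. Sequences are from the RefSeq genome of the WBcel235 build, 5′ to 3′ on the strand of the gene, in lower case, and capitals mark a match to a searched motif. The windows are chrIV:390449-390549 on the minus strand for ears-2, chrIV:11635724-11635824 and chrIV:11635926-11636026 on the minus strand for the stronger and the weaker summit of mars-1, chrII:7072715-7072815 on the minus strand for kars-1, chrIV:4357435-4357535 on the plus strand for sars-2 and chrII:8464658-8464758 on the plus strand for fars-3.
ears-2: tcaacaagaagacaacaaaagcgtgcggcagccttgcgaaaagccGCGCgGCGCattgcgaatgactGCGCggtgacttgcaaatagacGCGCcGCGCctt
mars-1, stronger summit: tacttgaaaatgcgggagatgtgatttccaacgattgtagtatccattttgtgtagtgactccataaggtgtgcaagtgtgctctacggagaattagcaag
mars-1, weaker summit: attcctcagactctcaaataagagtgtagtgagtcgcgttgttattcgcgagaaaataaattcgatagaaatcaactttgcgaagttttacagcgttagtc
kars-1: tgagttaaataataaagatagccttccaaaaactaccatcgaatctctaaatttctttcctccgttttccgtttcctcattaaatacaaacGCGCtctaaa
sars-2: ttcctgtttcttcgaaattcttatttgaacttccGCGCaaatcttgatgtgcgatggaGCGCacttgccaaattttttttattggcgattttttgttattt
fars-3: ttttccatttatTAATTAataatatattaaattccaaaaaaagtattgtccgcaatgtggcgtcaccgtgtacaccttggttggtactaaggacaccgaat

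The 5 motifs searched first, on both strands, were TAATTA (the core of many homeodomain sites), GAGAGA (a simple repeat), TGATAA (a site of zinc-finger factors of the GATA family), CACGTG (an E-box) and GTTCGA (part of the B box inside tRNA genes). None of them was in the 4 optimal windows at synthetase genes. Among all 2346 optimal windows of the same length, 1.02% held TAATTA, 30.3% GAGAGA, 1.88% TGATAA, 3.28% CACGTG and 4.35% GTTCGA. No motif contains another. A missing match says only that these letters are not in the window. Among the windows at the nearest summit of the 13 synthetase genes with a relaxed-only peak, 1 held TAATTA, that of fars-3 shown above, and 2 held GAGAGA, 2 TGATAA, 0 CACGTG and 0 GTTCGA. The shares over all 18113 relaxed windows outside the optimal list were 4.20% for TAATTA, 9.65% for GAGAGA, 8.72% for TGATAA, 2.08% for CACGTG and 3.79% for GTTCGA. The window at ears-2 repeats the letters GCGC, which read the same on both strands and were searched only after that sequence was seen. It holds GCGC 5 times, against 0 times in both windows of mars-1 and once at kars-1. Of the 13 relaxed-only windows 3 hold it, with 2 copies at sars-2. At least 3 copies were in 8.74% of all optimal windows and in 0.778% of the 18113 relaxed windows outside the optimal list, and at least 1 copy was in 52.1% and 12.3% of them. The ears-2 window is also rich in G and C, at 58.4%, against 41.6% and 37.6% at the stronger and weaker summits of mars-1, 33.7% at kars-1 and a median of 48.5% over all optimal windows, and the part of base composition in the GCGC count was not tested.

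The partner of ears-2 had no such peak. For ears-1, the cytosolic glutamate enzyme, the nearest optimal summit was 3189 bp upstream with a signal of 39.0. Its nearest pooled relaxed summit was 1676 bp upstream with a signal of 15.5, and the nearest summits of the replicates lay at −1032 bp with a signal of 7.37 in replicate 1 and at −1695 bp with a signal of 11.4 in replicate 2. No list thus had a summit within 500 bp of ears-1. The symbol rule gives mars-1 no mitochondrial partner. RefSeq names the gene Y105E8A.20 mars-2, the mitochondrial methionine enzyme, and that gene had a pooled relaxed summit at −18 bp with a signal of 18.5. Replicate 1 had a summit there at −18 bp, rank 2533, while the nearest summit of replicate 2 was 1604 bp downstream of the start, rank 12863.

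Beyond 500 bp, the next nearest optimal summits were those of fars-1, the alpha subunit of the cytosolic phenylalanine enzyme, at −906 bp with a signal of 77.3, iars-2, the mitochondrial isoleucine enzyme, at −1811 bp with a signal of 90.1, and iars-1, its cytosolic counterpart, at −2321 bp with a signal of 37.7. Each of these 3 peaks lay nearer to the start of another gene. The fars-1 peak was 136 bp from rbm-5, which encodes an RNA-binding protein. The iars-2 peak was in an intron of fath-1 and 593 bp from C25A1.16, and the iars-1 peak was 51 bp from sir-2.1, a sirtuin deacetylase gene. A reach of 1000 bp added fars-1 alone.

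The longer pooled relaxed list, which also holds weak peaks and background, had a peak at 16 of the 32 synthetase genes. This is 50% (95% Wilson interval 33.6 to 66.4%, counting error over genes only), against 27.4% of all protein-coding genes and 27.3% of the autosomal ones. The synthetase share lay above that of all genes here, unlike in the optimal list. By compartment, 9 of 20 cytosolic genes (45.0%, interval 25.8 to 65.8%) and 7 of 12 mitochondrial genes (58.3%, interval 32.0 to 80.7%) had such a peak. The intervals of the compartments overlap, so these counts do not separate them. For the same list the counts were 72 of 78 for cytosolic and 36 of 70 for mitochondrial ribosomal protein genes, and the synthetase share was close to the 51.4% of the mitochondrial ribosomal protein genes.

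Of the 16 synthetase genes with a pooled peak, 7 had a strongest peak of middle signal. With the strongest pooled summit within 500 bp taken for each gene, 7 synthetase genes (21.9%) had a signal between 20 and the 30.9 where the optimal list ends, against 3.80% of all protein-coding genes. Below a signal of 20 there were 6 synthetase genes (18.8%), against 15.4% of all genes. At 30.9 and above there were the 3 optimal genes, at the share of all genes given above. The limit of 20 was set after the values were seen. The 5000 strongest pooled peaks, another limit set after the values were seen, reached 10 synthetase genes (31.2%), 6 cytosolic and 4 mitochondrial, against 12.9% of all genes. Among genes with a pooled peak, the median signal of that strongest summit was 22.2 for the synthetase genes and 17.6 for all genes.

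**Figure D1:**
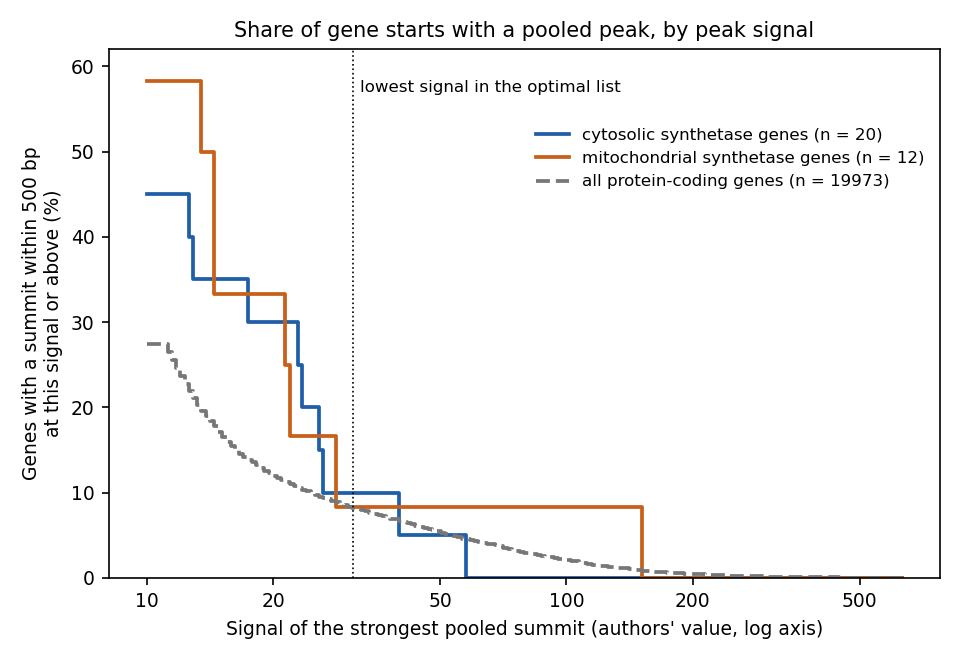
Share of genes in percent (vertical axis) whose strongest pooled summit within 500 bp of the gene start has at least the signal on the horizontal axis (the authors' value, log axis), for 20 cytosolic and 12 mitochondrial synthetase genes and 19973 protein-coding genes. The synthetase lines start at 45.0% and 58.3%, above the 27.4% of all genes, and meet the line of all genes near the dotted line at 30.9, where the optimal list ends.

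At each of the 16 genes the nearest pooled relaxed summit lay upstream of the start, by 14 to 400 bp, with a median of −145.5 bp. At 3 of these genes a second pooled summit lay within 500 bp, farther upstream at mars-1 and at nars-1 (−449 bp, signal 15.5), and 443 bp downstream in an intron at aars-2 (signal 15.1), so 18 of the 19 pooled summits in reach were upstream. Over all genes with a pooled peak, 69.8% of the nearest summits were upstream and the median was −124 bp. The median distance was −140 bp at the cytosolic and −151 bp at the mitochondrial genes, so the medians of the compartments were close. The nearest relaxed summits outside the reach were those of qars-1, the glutamine enzyme, at −537 bp with a signal of 11.8, iars-1 at −584 bp with 15.02 and gars-1, the glycine enzyme, at 654 bp downstream with 13.6. Stronger peaks lay still farther out at cars-1, the cysteine enzyme, at −869 bp with a signal of 29.7, and at rars-1, the cytosolic arginine enzyme, at −994 bp with 27.8. Neither of those counts as a peak of the gene here, although both signals are just below the end of the optimal list.

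**Figure D2:**
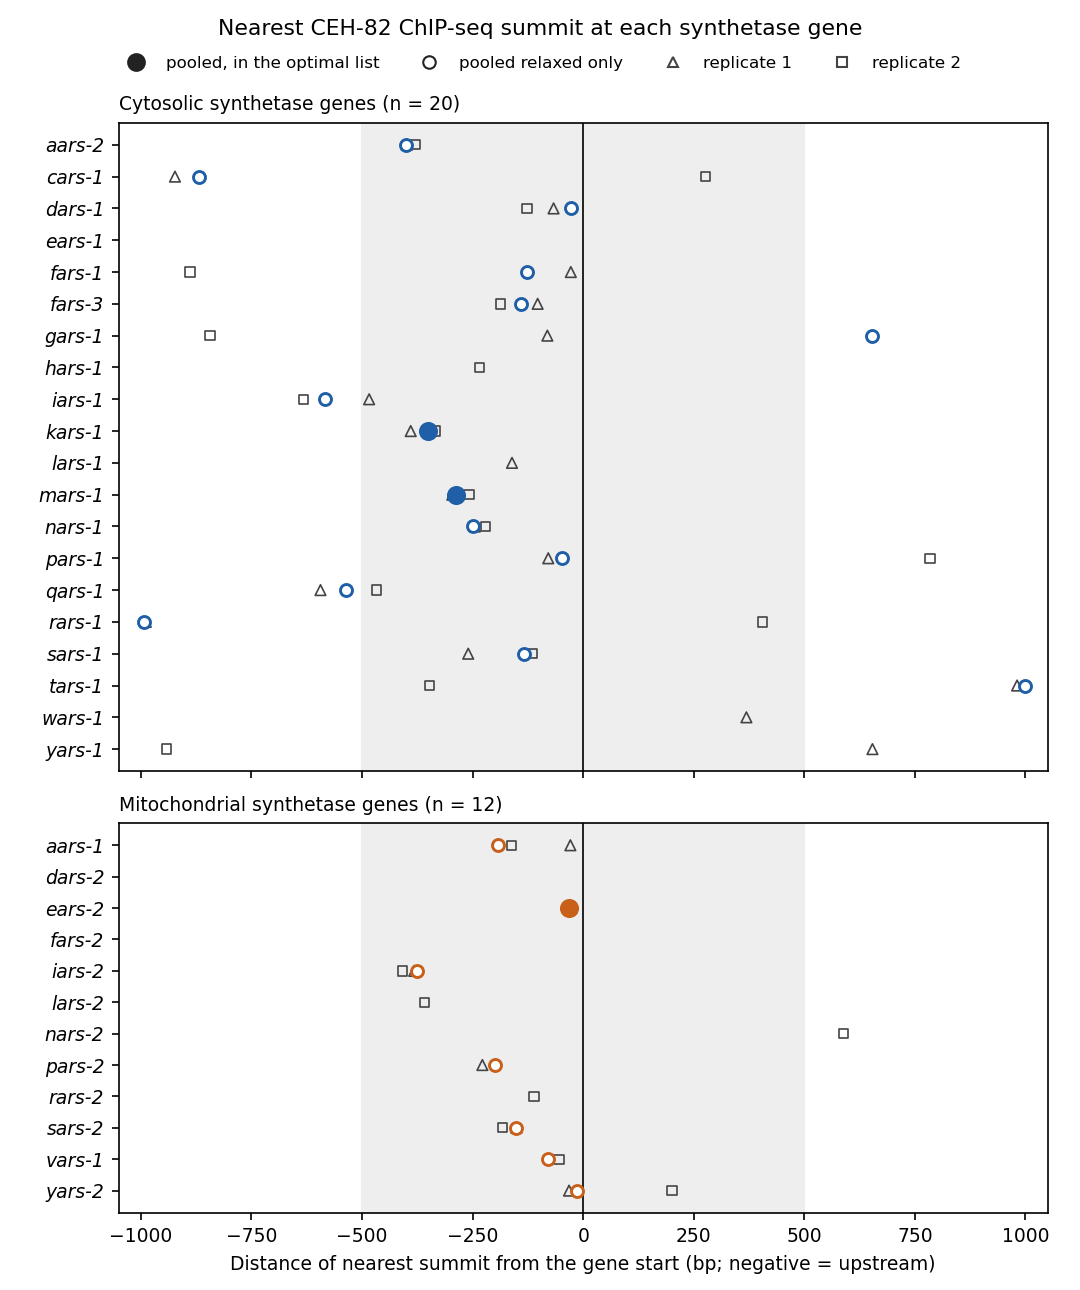
Signed distance in bp of the nearest summit from the gene start (negative is upstream; summits beyond 1000 bp are not drawn) for each of the 20 cytosolic genes (upper panel) and 12 mitochondrial genes (lower panel). Filled circles are pooled peaks in the optimal list, open circles pooled relaxed peaks, triangles replicate 1 and squares replicate 2, partly hidden where they coincide as at ears-2. Within the grey 500 bp the pooled circles all lie left of the start.

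Of the 13 genes with a pooled relaxed peak outside the optimal list, 7 encode cytosolic and 6 mitochondrial proteins. The strongest was at sars-2, the mitochondrial serine enzyme, with a pooled signal of 27.9 at −151 bp. Its signal was 8.77 in replicate 1, rank 7302, and 21.4 in replicate 2, rank 1858, so it was among the 2346 strongest peaks of replicate 2 alone. At fars-3 the pooled signal was 26.1 at −140 bp, with 13.4 in replicate 1, rank 2771, and 11.8 in replicate 2, rank 4687. At dars-1, the cytosolic aspartate enzyme, the pooled signal was 25.3 at −28 bp, with 13.2 in replicate 1, rank 2848, and 15.6 in replicate 2, rank 2793. The peaks of fars-3 and dars-1 were outside the 2346 strongest of either replicate. The dars-1 summit is also 153 bp from the divergent gene ctr-9, a subunit of the PAF1 transcription elongation complex.

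The next 4 peaks were weaker. They were at aars-2 with a pooled signal of 23.3 at −400 bp, nars-1, the cytosolic asparagine enzyme, with 22.8 at −249 bp, iars-2 with 21.5 at −375 bp, and aars-1 with 21.1 at −192 bp. Both alanine enzymes were thus in this group, and replicate 2 ranked the aars-1 peak 2349, just past the 2346 strongest, against 4784 in replicate 1. The iars-2 summit lies in a coding exon of C25A1.20, 16 bp from the start of that gene, which spans the iars-2 start. The aars-1 summit is 205 bp from the divergent gene rga-1, and the nars-1 summit is 429 bp from nduf-6. These last 3 sites thus have another gene start in reach, while no other start was within 1000 bp of the aars-2 summit.

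The last 6 had pooled signals under 20. They were sars-1, the cytosolic serine enzyme, with 17.3 at −134 bp, vars-1 with 14.2 at −79 bp, yars-2, the mitochondrial tyrosine enzyme, with 14.1 at −14 bp, pars-2, the mitochondrial proline enzyme, with 13.3 at −200 bp, pars-1, its cytosolic counterpart, with 12.7 at −49 bp, and fars-1 with 12.4 at −128 bp. The sars-1 summit was nearer to its divergent neighbour C47E12.2, at 90 bp, than to sars-1. The fars-1 summit lies in a coding exon of T08B2.15, which spans the fars-1 start. Peaks this weak are common in the list, whose median signal is 14.2.

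The replicates agreed in part on which synthetase genes had a peak. In its relaxed list replicate 1 had a summit within 500 bp at 19 synthetase genes (59.4%), against 35.1% of all genes, and replicate 2 at 20 (62.5%), against 35.0% of all genes. Both had one at 12 genes (37.5%), against 20.1% of all genes. These 12 were aars-1, aars-2, dars-1, ears-2, fars-3, iars-2, kars-1, mars-1, nars-1, sars-1, sars-2 and yars-2, and all had a pooled peak too. Their replicate summits were a median of 46.5 bp apart, between 5 bp at ears-2 and 233 bp at yars-2. Of the other 4 genes with a pooled peak, fars-1, pars-1 and pars-2 had a summit in replicate 1 only and vars-1 in replicate 2 only.

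Another 11 synthetase genes had a summit in 1 replicate and none in the pooled list. They were gars-1, iars-1, lars-1 and wars-1 in replicate 1, and cars-1, hars-1, lars-2, qars-1, rars-1, rars-2 and tars-1 in replicate 2. The strongest of these by rank was rars-1, at rank 6710 of replicate 2. The last 5 genes, dars-2, ears-1, fars-2, nars-2 and yars-1, had no summit within 500 bp in any list. Both leucine enzymes, lars-1 and lars-2, and both arginine enzymes, rars-1 and rars-2, are among the genes without a pooled peak.

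When each replicate's list was limited to its 2346 strongest peaks, the size of the optimal list, each had 3 synthetase genes. They were ears-2, kars-1 and mars-1 in replicate 1, where 8.06% of all genes had such a peak, and ears-2, mars-1 and sars-2 in replicate 2, where 7.86% did. Both replicates had 2, ears-2 and mars-1, or 6.25% of the synthetase genes, against 6.56% of all genes. The ranks at ears-2 stood apart from those of the other 11 genes with a summit in both replicates, whose best rank was 718, at mars-1. The weakest agreement in rank was at yars-2, rank 3789 in replicate 1 and 23876 in replicate 2.

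**Figure D3:**
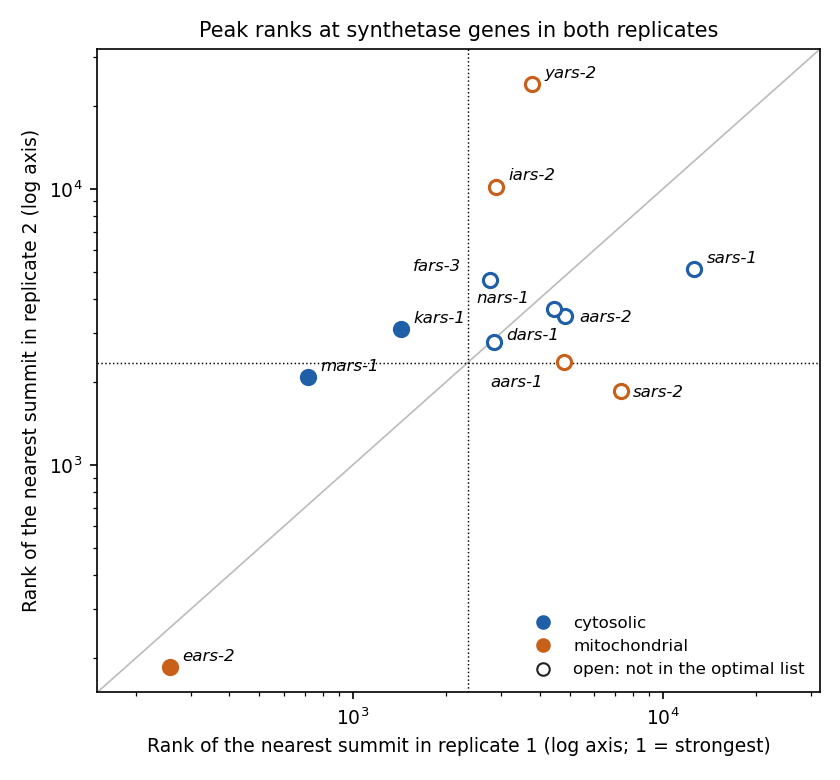
Rank of the nearest summit in replicate 1 (horizontal) and replicate 2 (vertical; both log axes, 1 is the strongest) at the 12 synthetase genes with a summit within 500 bp in both replicates. Filled points are in the optimal list, dotted lines mark rank 2346 and the grey line marks equal ranks, and ears-2 sits alone at ranks 257 and 185.

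The enzymes of 1 amino acid could be compared within 11 pairs that have a member in each compartment. Both enzymes had a pooled relaxed peak for 3 amino acids, alanine, proline and serine. For aspartate, phenylalanine and asparagine the cytosolic gene had one and the mitochondrial gene had none, and both subunits of the cytosolic phenylalanine enzyme had one. For glutamate, isoleucine and tyrosine it was the mitochondrial gene alone, and for leucine and arginine neither. The discordant pairs were thus split evenly, 3 in each direction. For single genes, 27.4% of all protein-coding genes had a pooled relaxed peak. The pair counts rest partly on weak or shared peaks. Those of pars-1 and pars-2 had signals under 20 and a summit in replicate 1 only. The sars-1 and iars-2 summits lie nearer to the start of another gene. Of the genes for 1 amino acid without a partner among the members, kars-1, mars-1 and vars-1 had a pooled peak, while cars-1, gars-1, hars-1, qars-1, tars-1 and wars-1 had none. A further gene outside the symbol rule, glp-4, is named a valine--tRNA ligase by RefSeq and had a pooled relaxed summit at −491 bp with a signal of 22.0. The nearest replicate summits at glp-4 were at −466 bp in replicate 1 and −531 bp in replicate 2. Another, prx-10, which RefSeq also names the mitochondrial tryptophan--tRNA ligase, had its nearest pooled relaxed summit at −5803 bp.

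The genes were also sorted by the next gene upstream, with no test between compartments. Genes that span a start were passed over, so fars-1, iars-2 and tars-1, which start inside another gene, were sorted by the next gene beyond it. Of the 20 cytosolic genes 15 have a divergent neighbour, which points away from them and can share an upstream region, against 3 of the 12 mitochondrial genes and 45.4% of all protein-coding genes. The other 9 mitochondrial and 5 cytosolic genes follow a gene on the same strand, as genes within an operon do. All 3 genes with an optimal peak and 11 of the 16 genes with a pooled relaxed peak were among the 18 with a divergent neighbour. Among these 18, 61.1% had a pooled relaxed peak, against 32.3% of all genes with a divergent neighbour, and 16.7% had an optimal peak, against 13.1%. Among the 14 that follow a gene on the same strand, 5 had a pooled relaxed peak (35.7%), against 23.4% of all such genes, and 0 had an optimal one, against 4.06%. Gap lengths differ as well, with a median of 743.5 bp at divergent and 163.5 bp at same-strand synthetase genes, against 1550 and 936 bp over all genes. With gaps of up to 500 bp, 4 of 6 divergent synthetase genes had a pooled relaxed peak (66.7%), against 50.9% of all such genes. At same-strand genes with such gaps it was 4 of 11 (36.4%), against 26.4%. Optimal peaks were at 1 of these 6 and 0 of these 11, against 545 of 1840 and 180 of 3612 over all genes. The part of gap length in the peak counts was not tested.

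Genes for tRNAs, the substrates of these enzymes, were not within 500 bp of any synthetase start. The same distance over all protein-coding genes is not given here, so the spacing is not read as a trait of the synthetase genes. The tRNA gene nearest to a synthetase start was 46485 bp away, at dars-2, and the median was 186812 bp, so no synthetase peak here is at a tRNA gene.

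Genes that act before and after the synthetases were counted from lists of the pathway. The elongation factors had the highest shares with a peak. They were listed for the delivery of charged tRNA to the ribosome, but the list also holds eef-2 and gfm-1, which act in translocation. In the optimal list 9 of the 10 genes, with eef-2 and gfm-1 among them, had a peak (90.0%, interval 59.6 to 98.2%), against 8.18% of all protein-coding genes. In the pooled relaxed list 10 of 10 had one, against 27.4%. The strongest were at eef-1A.1 and eef-1A.2, the genes for the factor that carries charged tRNA, with signals of 203.3 and 202.8, at eef-1G, a subunit of its exchange factor, with 166.8, and at eef-2, the translocation factor, with 143.0. All 4 are in the same range as, or above, the 148.8 of ears-2. The eef-1A genes are near-identical copies, and how reads were shared between them is not given in the sources used here.

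In the other lists the optimal share lay between that of the elongation factors and that of the synthetases. Over all protein-coding genes the optimal share was 8.18% and the pooled relaxed share 27.4%. In the list for sensing of uncharged tRNA and amino acids, 8 of 11 genes had a pooled relaxed peak (72.7%). An optimal peak was at 5 of the 11 (45.5%, interval 21.3 to 72.0%). Not every gene of this list is itself such a sensor, and pek-1, a kinase gene that is not, is among the 5. The others were gcn-1 and gcn-2, the activator and the kinase that respond to uncharged tRNA, with signals of 106.5 and 54.6, and ragc-1 and daf-15 of the TOR pathway, with 40.5 and 38.1. Of 8 genes for RNA polymerase III and its regulators, which make tRNA, 6 had a pooled relaxed peak (75.0%). An optimal peak was at 3 of the 8 (37.5%, interval 13.7 to 69.4%). They were rpc-1, the largest subunit, with a signal of 47.8, mafr-1, the repressor of this polymerase, with 45.4, and rpac-19 with 34.03. Of 26 genes for tRNA processing and modification 4 had an optimal peak (15.4%, interval 6.15 to 33.5%, which covers the share of all genes) and 12 a pooled relaxed one. They were mtcu-2, which modifies mitochondrial tRNA, with 105.5, the pseudouridine synthase gene pus-1 with 73.6, cdkr-3 with 35.5 and popl-7, a subunit of the tRNA-trimming RNase P, with 34.2. The synthetases thus had the lowest optimal share of the 5 lists, and their pooled relaxed share of 50% was close to the 46.2% of the processing genes. The lists are short, so their intervals are wide, and no list was tested against another.

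**Figure D4:**
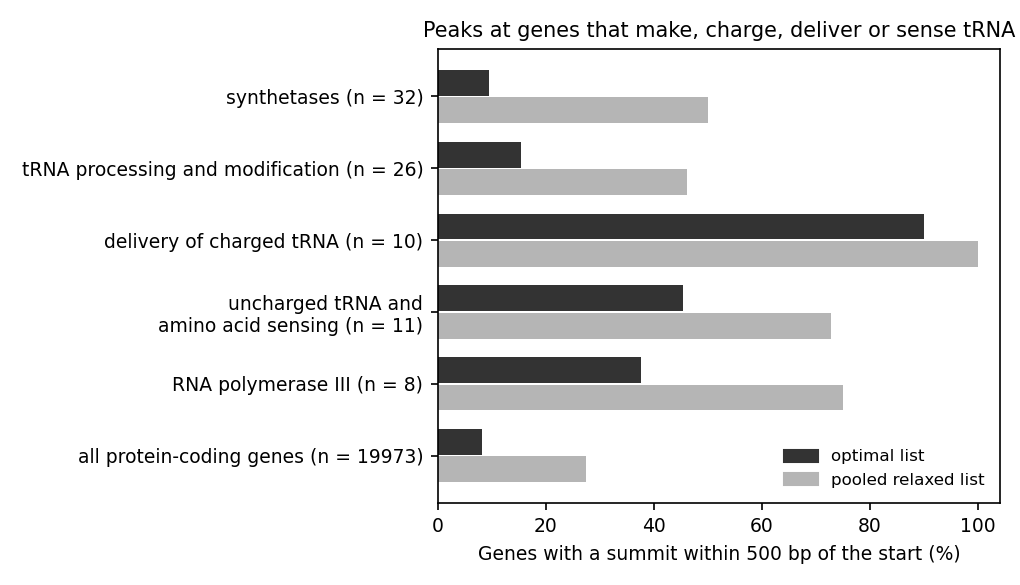
Percent of genes with a summit within 500 bp of the start in the optimal list (dark bars) and the pooled relaxed list (light bars), for the 32 synthetase genes, the 4 other lists of the pathway and all 19973 protein-coding genes. The dark bar of the synthetase genes, at 9.38%, is near that of all genes, at 8.18%, while their light bar reaches 50%, against 27.4%.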

How the data were processed

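Signal values and summit positions were used as deposited. Per the labels and the file descriptions deposited with each replicate, the authors called relaxed lists of peaks and background on ce11 for each replicate and for both together, each against a control alignment, and derived the optimal list from them by IDR. The peak caller, the signal scale, the IDR threshold and the read depth are not given in the sources used here. The lists on ce10 were not used. The other values taken from the deposited lists are summit offsets in bp.

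Gene starts came from Ensembl release 115. For every protein-coding gene the nearest summit of each list was found with Python 3.11.15, and genes with a summit within 500 bp were counted. Compartments came from RefSeq product names, otherwise from a list by hand. With 1 group of 2 replicates and no control group no test was run. Counts stand beside those of all protein-coding genes, with 95% Wilson intervals (scipy 1.17.1). The distance code was tested on simulated positions.

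Genes with full values are those with an optimal peak and their partner enzyme, the 3 next nearest, other genes sharing such a summit and, per list of the pathway, up to 4 with the strongest peaks. The members, lists and motifs were chosen with earlier results of these data known. The 5000 strongest peaks, the signal limit of 20, GCGC, the autosomal genes, ribosomal protein genes, neighbour orientation, second summits and relaxed-only sequences were added after the values were seen.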

Additional observations from a re-analysis of the deposited data

How the results depend on the processing

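The count of 3 synthetase genes with an optimal peak was 3 or 4 under a reach of 1000 bp, the upstream side alone, any transcript start, the nearest start for each summit, with peaks near snRNA, snoRNA or tRNA genes left out, and with each replicate alone, and 2 with the 1173 stronger optimal peaks. It was 1 at 250 bp, 16 with all pooled relaxed peaks and 10 with the 5000 strongest. Over all protein-coding genes the share moved as well, from 8.18% to 5.33% at 250 bp and 10.3% at 1000 bp. That share was 4.70% with the 1173 stronger optimal peaks, 27.4% with all pooled relaxed peaks and 12.9% with the 5000 strongest. The 2 cytosolic genes became 0 at 250 bp, 1 with the 1173 stronger peaks, 9 with all pooled relaxed peaks, 6 with the 5000 strongest and 1 without the genes that serve both compartments. The 1 mitochondrial gene became 7 and 4 with all and with the 5000 strongest pooled relaxed peaks. Leaving out a replicate gave 1 to 2 cytosolic and 1 to 2 mitochondrial genes, since sars-2 takes the place of kars-1 without replicate 1. The median signal of the 3 genes, 56.6, read 19.5 to 35.4 in the replicates' own lists, whose scales differ, and their median distance of −287 bp ran from −296 to −258 bp. With the 1173 strongest peaks of each replicate, the count of synthetase genes was 1 in replicate 2 and 1 in both, where 4.67% and 3.79% of all genes had such a peak. With the whole lists it was 19, 20 and 12 in replicate 1, replicate 2 and both, against 35.1%, 35.0% and 20.1% of all genes. The 16 genes with a pooled relaxed peak, 7 of them mitochondrial, became 10 and 4 with the 5000 strongest peaks, and 5 genes of the sensing list became 3 at 250 bp. Cytosolic ribosomal protein genes with an optimal peak, 63 of 78, became 14 at 250 bp and 34 with each summit at its nearest start. The shares of all genes there were 5.33% and 6.20%. For these moves other than those set by fewer peaks, fewer genes or a shorter reach the cause was not tested.

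No paired analysis was possible because both replicates belong to 1 group. Depth is unknown, so a synthetase gene without a peak is only a gene where none was detectable. With 12 mitochondrial genes, shares have wide intervals, and peaks shared with a neighbouring start cannot be given to 1 gene.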
